A study of Mus musculus with 8 samples.

Results

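Transcripts of 8 enzymes of cholesterol synthesis are described here by their levels in mouse liver: Idi1, Fdps, Fdft1, Sqle, Cyp51, Msmo1, Nsdhl and Sc5d. They were taken by symbol from the probe sets that the platform annotation gives to exactly 1 gene, with the brightest probe set standing for each gene. All 8 had a probe set, out of 8251 named genes in the series, and all 8 were bright enough to test. The list carries the LDL receptor in its working name, but the receptor gene was not analysed here, so the genes are called cholesterol synthesis genes below. The livers came from 8 female Ames dwarf mice, one Affymetrix U74Av2 array each. Ames dwarf mice are homozygous for a mutation (df/df) that is present in every cell and blocks pituitary development, so that they lack growth hormone, prolactin and thyroid stimulating hormone. All 8 animals carried it and were fed a pelleted diet cut by 30% relative to what free-feeding female df/df mice ate, and their age at death lay between 24 and 26 months. They form a single group. Neither free-feeding nor normal-sized animals were analysed here. Every comparison below is therefore between individual mice and carries no measure of diet or genotype.

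Cholesterol is built from acetyl-CoA by way of mevalonate. Isomerised isoprene units are joined to farnesyl diphosphate, a pair of these is condensed to squalene, and squalene is epoxidised and closed into lanosterol, which is then demethylated, reduced and desaturated. In liver the genes of this pathway are activated together by the transcription factor SREBP-2 when sterols in the endoplasmic reticulum run low, while the related factor SREBP-1c, made from Srebf1, acts mainly on fatty acid synthesis. SREBPs work together with NF-Y, which binds CCAAT, and with Sp1, which binds GC boxes such as GGGCGG.

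RefSeq promoters (GRCm38, 250 bases before to 50 after the annotated start) were held for 5 of the 8 genes: Idi1, Cyp51, Msmo1, Nsdhl and Sc5d. Those of 3 genes are shown because their genes mark the main patterns described below: Idi1 was the gene closest to the other 7, Msmo1 had the widest range, and Nsdhl had the highest r with Sqle. Capitals mark CCAAT and GGGCGG on either strand, so that the opposite strand reads ATTGG and CCGCCC. The Idi1 promoter lies at chr13:8885356-8885655 on the plus strand, the Msmo1 promoter at chr8:64733529-64733828 on the minus strand and the Nsdhl promoter at chrX:72918271-72918570 on the plus strand.
Idi1: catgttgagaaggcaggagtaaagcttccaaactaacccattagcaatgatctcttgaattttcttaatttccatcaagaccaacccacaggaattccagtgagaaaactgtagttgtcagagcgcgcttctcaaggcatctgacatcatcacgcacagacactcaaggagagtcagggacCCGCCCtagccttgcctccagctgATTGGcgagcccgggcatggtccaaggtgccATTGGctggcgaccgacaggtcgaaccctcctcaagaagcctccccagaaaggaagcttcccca
Msmo1: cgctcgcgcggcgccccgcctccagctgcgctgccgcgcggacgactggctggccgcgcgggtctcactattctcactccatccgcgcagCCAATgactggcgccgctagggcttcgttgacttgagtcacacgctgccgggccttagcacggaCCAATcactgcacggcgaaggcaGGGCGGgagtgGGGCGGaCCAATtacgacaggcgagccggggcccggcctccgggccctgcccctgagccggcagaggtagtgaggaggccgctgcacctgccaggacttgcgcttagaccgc
Nsdhl: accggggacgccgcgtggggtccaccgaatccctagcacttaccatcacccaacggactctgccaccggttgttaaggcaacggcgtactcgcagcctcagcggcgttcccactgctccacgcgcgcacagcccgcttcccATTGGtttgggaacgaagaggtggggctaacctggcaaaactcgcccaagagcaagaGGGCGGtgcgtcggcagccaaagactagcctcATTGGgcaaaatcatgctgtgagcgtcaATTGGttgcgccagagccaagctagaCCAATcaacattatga

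All 5 promoters held both motifs, against 12.8% of 32851 mouse promoters of the same length (CCAAT was in 37.4% and GGGCGG in 35.7%). The Msmo1 window held 3 CCAAT and 2 GGGCGG, the first bases of the last CCAAT and GGGCGG standing 55 and 62 bases before the start. The Idi1 window held 2 CCAAT and 1 GGGCGG, and the Nsdhl window 4 CCAAT and 1 GGGCGG. The sterol element TCACNCCAC, searched on both strands, was found in 0 of the 5 windows and in 1.24% of all promoters. Of 15 promoters of other genes of the pathway, 1 held it, that of Hmgcs1, and 9 held both CCAAT and GGGCGG. These are letter matches in a short window and say nothing about binding by any factor.

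The arrays were alike in trimmed mean, to which they had already been scaled, but less so in median. Array medians ran from 146 (mouse 5) to 177 (mouse 8) intensity units, while the mean without the extreme 2% at each end came to 500.35 to 500.42 on all 8. Hepatocyte markers (Alb, Apoa1, Ttr, Tat and Cps1, all 5 measured) summed to between 80281 in mouse 6 and 119788 in mouse 5. Macrophage markers (6 of 6 measured) summed to between 3065 in mouse 5 and 19684 in mouse 6. In whole tissue, fewer cells of a type and less RNA per cell cannot be told apart. Intensities are probe set brightness on a linear scale, and levels are compared only within a gene.

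The first enzymes take the pathway to squalene. Idi1 (chr13:8885606-8892396), the isomerase that makes the reactive isoprene unit, had intensities of 1647, 1443, 1719, 1994, 1224, 832, 866 and 1585 in mice 1 to 8, a mean of 1414 ± 412 (SD, n = 8). Mice 6 and 7 lay well below the other 6, and mouse 4 was highest. Fdps (chr3:89093588-89101967), farnesyl diphosphate synthase, read 2972, 2724, 2250, 3105, 2105, 1585, 1509 and 2604, a mean of 2357 ± 600 (SD, n = 8). As for Idi1, mouse 4 was highest and mice 6 and 7 were lowest. A further bright Fdps probe set, which shares probes with related transcripts, followed the first over the mice (r = 0.888). Fdft1 (chr14:63145150-63181687), squalene synthase, which commits farnesyl diphosphate to sterols, stayed between 1606 in mouse 6 and 2195 in mouse 4, with 2080, 1845, 1896, 1743, 1895 and 1708 in mice 1, 2, 3, 5, 7 and 8. Its range was 1.37-fold and its mean 1871 ± 194 (SD, n = 8), the narrowest spread of the 8 genes.

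Sqle (chr15:59315092-59331193), squalene epoxidase, a rate-limiting step after the reductase, had another order of mice. It read 651, 525.9, 891, 483, 403, 709, 364 and 1097 in mice 1 to 8, a mean of 640 ± 253 (SD, n = 8). Mice 8, 3 and 6 were highest and mice 7, 5 and 4 lowest, a 3.02-fold range. Mouse 4, the top mouse for Idi1, Fdps and Fdft1, was the third lowest for Sqle.

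The remaining enzymes work on lanosterol and its products. Cyp51 (chr5:4080674-4104697), lanosterol demethylase, read 158, 206, 293, 205, 176, 176, 169 and 273, a mean of 207 ± 50.1 (SD, n = 8). It was highest in mice 3 and 8 and lay near the brightness limit for testing (a mean of 165). Msmo1 (chr8:64718123-64733578), the oxidase that starts removal of the paired methyl groups of the sterol ring, read 1851, 1487, 1278, 4256, 1517, 771, 1474 and 1353, a mean of 1748 ± 1057 (SD, n = 8). Mouse 4 stood far above the rest, with mouse 1 next, and the range was 5.52-fold. Nsdhl (chrX:72918521-72958528), the dehydrogenase that acts next, read 780, 624, 641, 689, 369, 698, 588 and 985, a mean of 672 ± 174 (SD, n = 8). Mouse 8 was highest and mouse 5 lowest, and its 3 probe sets followed each other (r from 0.916 to 0.963). Sc5d (chr9:42251592-42264300), a sterol desaturase near the end of the pathway, read 1570, 1755, 1793, 2316, 1062, 729, 1582 and 1470, a mean of 1535 ± 479 (SD, n = 8). Mouse 4 was highest and mice 6 and 5 were lowest, and the other probe set of Sc5d gave r = 0.920 with this one. The probe sets used for Sc5d and Nsdhl carry suffixes that mark shared or incomplete probe groups, so part of their signal may come from related transcripts.

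**Figure D1:**
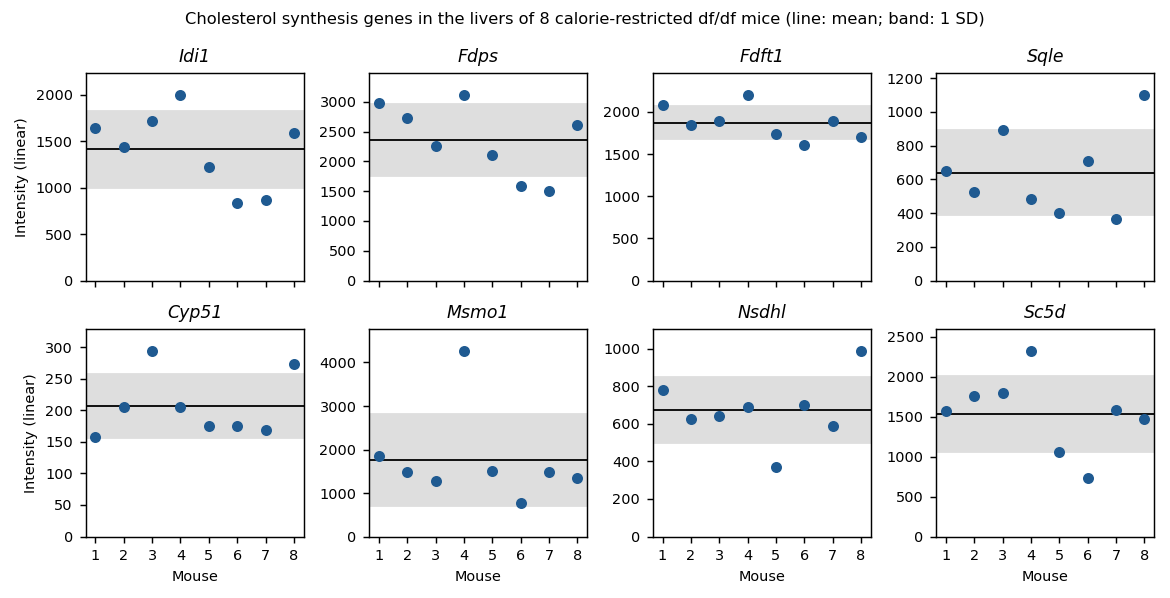
Intensity (linear, vertical axis) of each of the 8 cholesterol synthesis genes in mice 1 to 8 (horizontal axis); points are single arrays, the line is the mean and the band 1 SD to either side. Mouse 4 is the highest point for Idi1, Fdps, Fdft1, Msmo1 and Sc5d, mouse 8 for Sqle and Nsdhl, and mouse 3 for Cyp51.

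Across the 8 genes, mouse 4 was highest in 5 and lowest in 0, and mouse 6 was lowest in 4. How many of all tested genes were highest in mouse 4 or lowest in mouse 6 was not counted. Mouse 5 lay below the mean in all 8 on the deposited scale, on which its array median was the lowest (146). A common median would raise mouse 5 by 0.18 log2, and this count was not repeated on that scale. The mean of the centred log2 values ran from -0.42 in mouse 6, -0.31 in mouse 5 and -0.29 in mouse 7 to 0.25 in mouse 8 and 0.39 in mouse 4, with 0.15, 0.04 and 0.18 in mice 1, 2 and 3. Every array was the liver of a different animal, and the labels name no batch.

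The spread between mice was set against the variance expected at each brightness (limma's moderated variances, one-sided F test, Benjamini-Hochberg over 6265 probe sets). The SD of log2 intensity was 0.69 for Msmo1, 0.55 for Sqle, 0.51 for Sc5d, 0.46 for Idi1, 0.40 for Nsdhl, 0.39 for Fdps, 0.33 for Cyp51 and 0.15 for Fdft1. Their median was 0.43, against 0.23 for 4869 tested genes. The F test called 0 of the 8 (0% of all probe sets were called, lowest adjusted p 0.265 among all). Without adjustment Msmo1, Sqle and Sc5d passed 0.05, that is 3 of 8, where 6.38% of all probe sets did. A chi-square test that takes the brightness trend as the whole expected variance called 6 of 8, all but Cyp51 and Fdft1, where 18.3% of all probe sets were called. Single mice carried part of these spreads. Without mouse 4 the SD of Msmo1 was 0.39, without mouse 6 that of Sc5d was 0.34, and without mouse 5 that of Nsdhl was 0.25. Msmo1 and Sc5d then no longer passed 0.05 unadjusted, nor did Sc5d without mouse 4 or Sqle without mouse 3, 7 or 8.

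Several of the enzymes varied together from mouse to mouse. Of the 28 pairs among the 8 genes, 6 (21.4%) had a Pearson r over 0.7 on the log2 scale, against 5.16% of all 11851146 pairs of tested genes, and the median r was 0.36 against 0.0022 for all pairs. Positive values were found in 23 pairs and negative ones in 5. For 6 pairs the exact two-sided permutation p was under 0.05, before any adjustment for the number of pairs. In limma fits of all probe sets on each gene in turn, no pair of the 8 genes passed after adjustment (lowest adjusted p 0.206, for Nsdhl on Sqle).

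Idi1 and Fdps, which act one after the other, gave the highest r, 0.927 (exact permutation p = 0.00295, n = 8), with Spearman's rho 0.810 (exact p = 0.0218). Without mice 6 and 7 it was 0.668. Among all tested genes, Fdps ranked 1 by r to Idi1, and Idi1 ranked 2 by r to Fdps. Fdft1, Msmo1 and Sc5d formed a further set of high pairs, all with mouse 4 at the top and mouse 6 at the bottom. Fdft1 and Msmo1 gave r = 0.868 (exact permutation p = 0.00231, n = 8) and rho = 0.667 (exact p = 0.0831), and r = 0.632 without mice 4 and 6. Fdft1 and Sc5d gave r = 0.824 (exact permutation p = 0.0109, n = 8), rho = 0.810 (exact p = 0.0218) and r = 0.485 without the same mice. The exact p of this pair exceeded 0.05 without mouse 4 alone (r = 0.746) or mouse 6 alone (r = 0.729). The relation of Msmo1 and Sc5d, r = 0.772 (exact permutation p = 0.0404, n = 8) and rho = 0.381 (exact p = 0.360), rested on those 2 mice, since r was -0.19 without them. Idi1 and Sc5d joined the sets at r = 0.738 (exact permutation p = 0.0348, n = 8), rho = 0.738 (exact p = 0.0458) and r = 0.894 without mice 6 and 7. Without mouse 6 alone r was 0.522 (exact permutation p = 0.228), and the exact p also exceeded 0.05 without mouse 1, 2, 3 or 4 and with Sc5d averaged over its probe sets.

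The highest r of Sqle within the 8 genes were those with Nsdhl and Cyp51, and whether it differs from the set above was not tested. Sqle and Nsdhl gave r = 0.721 (exact permutation p = 0.0363, n = 8), rho = 0.762 (exact p = 0.0368) and r = 0.619 without mice 7 and 8, and without mouse 8 alone r was 0.550 (exact permutation p = 0.200). The exact p of this pair also exceeded 0.05 without mouse 1, 2, 5 or 6, with a common median (r = 0.637) and with quantile normalization (r = 0.690). Sqle and Cyp51 did not pass, with r = 0.699 (exact permutation p = 0.0560, n = 8), rho = 0.619 (exact p = 0.115) and r = 0.488 without those mice. With Msmo1 the r of Sqle was -0.34 (exact permutation p = 0.423, n = 8), rho was -0.55 (exact p = 0.171), and r was -0.47 without mice 7 and 8. Idi1 followed the mean of the other 7 genes with r = 0.906, Fdps with 0.810 and Sc5d with 0.711, while Sqle gave 0.211, values that describe the set and were not tested.

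**Figure D2:**
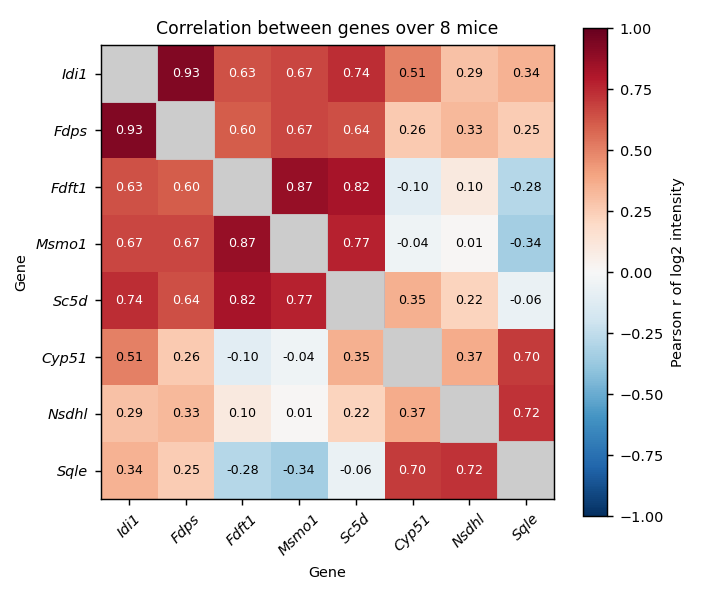
Pearson r of log2 intensity over the 8 mice for each pair of the 8 cholesterol synthesis genes (genes on both axes, colour and number both giving r). Idi1, Fdps, Fdft1, Msmo1 and Sc5d form the block of high values, and Sqle has its highest r with Nsdhl (0.72) and Cyp51 (0.70).

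Sqle was the one gene of the 8 whose level other transcripts followed past the threshold. In the limma fit of 6264 probe sets on log2 Sqle, 23 (0.367%) passed an adjusted p of 0.05, of which 22 (0.351%) were higher where Sqle was higher. Fits on the other 7 genes called 0 each (though that on Fdft1 called 164 with the arrays scaled to a common median), while 1.25% (Fdps), 1.66% (Idi1), 5.12% (Cyp51), 8.40% (Msmo1), 9.66% (Sc5d), 10.2% (Fdft1) and 15.7% (Nsdhl) of probe sets had an unadjusted limma p under 0.05, against 16.6% for Sqle. The difference between Sqle and the others was not tested, and the transcripts named here were picked because they passed. They include the acute phase genes Saa3, Orm1, Apcs, Hpx and Lcn2, the chemokines Ccl2, Cxcl1 and Cxcl9, and the chemokine receptor Ccr2. Cybb (the phagocyte oxidase subunit), Cd74 (the MHC class II chaperone), Icam1, Ltb, Ubd, Gbp3 and Ikbke were also among them, with Elf3, Tff3, Ccnd1 and AW112010. Inpp5a was the one that was lower, and 2 probe sets had no single gene name. The probe sets of Hpx and Cxcl1 carry suffixes of shared probes, as does that of Cyp7b1 below.

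Elf3, an epithelial ETS transcription factor, read 534, 360, 650, 289, 287, 476, 189 and 801 in mice 1 to 8. It was lowest in mouse 7 and highest in mouse 8, as Sqle was. Its slope was 1.22 ± 0.13 log2 units per log2 unit of Sqle (SE, limma adjusted p = 0.0106), with r = 0.973 (exact permutation p = 0.000174, n = 8), rho = 0.976 (exact p = 0.000397) and r = 0.957 without mice 7 and 8. Cybb read 158, 161, 377, 92.2, 70.2, 480, 52.1 and 1132, a slope of 2.64 ± 0.28 (SE, limma adjusted p = 0.0106). Its mice ran in nearly the order of Sqle (rho = 0.952, exact permutation p = 0.00114, n = 8, and r = 0.959, exact p = 0.000248, or 0.899 without mice 7 and 8). Saa3 read 7872, 388, 6604, 413, 229, 7683, 124 and 12035, a slope of 4.57 ± 0.60 (SE, limma adjusted p = 0.0276). Its mice fell into a high set (1, 3, 6 and 8) and a low set (2, 4, 5 and 7), so no pooled r is given. The highest mouse was mouse 8 for 17 of the 23 probe sets and mouse 6 for 4, and the lowest was mouse 7 for 14 and mouse 5 for 8.

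The number of transcripts following Sqle depended on single mice. It was 0 without mouse 7 and 0 without mouse 8, the lowest and highest for Sqle, and 1, 2, 4, 5 and 11 without mice 5, 4, 3, 1 and 2, but 130 without mouse 6. The sign of r was kept for all 23 probe sets whichever mouse was left out, and |r| was then at least 0.845, as the selection of the 23 by these same mice favours. Scaling the arrays to a common median left 6, testing without a filter on dim probe sets left 0, and a variance without a brightness trend left 14. Macrophage markers summed to 4456, 6537, 6505, 3134, 3065, 19684, 3124 and 13890 in mice 1 to 8, and lymphocyte markers (3 of 4 measured) to 613, 478, 822, 236, 381, 940, 290 and 1162. Both sums were lowest in mice 4, 5 and 7, where Sqle was lowest. The lymphocyte list holds Ltb, itself among the 23, and Cd3e and Cd4 without it summed to 399, 359, 396, 129, 332, 289, 213 and 337, no longer in that order. Within the macrophage list Clec4f went another way, with 747 in mouse 8 and 828, 917 and 997 in mice 4, 5 and 7. Adgre1 in mouse 5 (164) lay above mice 1 (143) and 3 (133), and Lyz2 in mouse 2 (398) lay below mice 4 (406) and 5 (411). Only Cd68, C1qa and Mpeg1 had their lowest values in mice 4, 5 and 7. The part of these cells in the result was not tested.

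**Figure D3:**
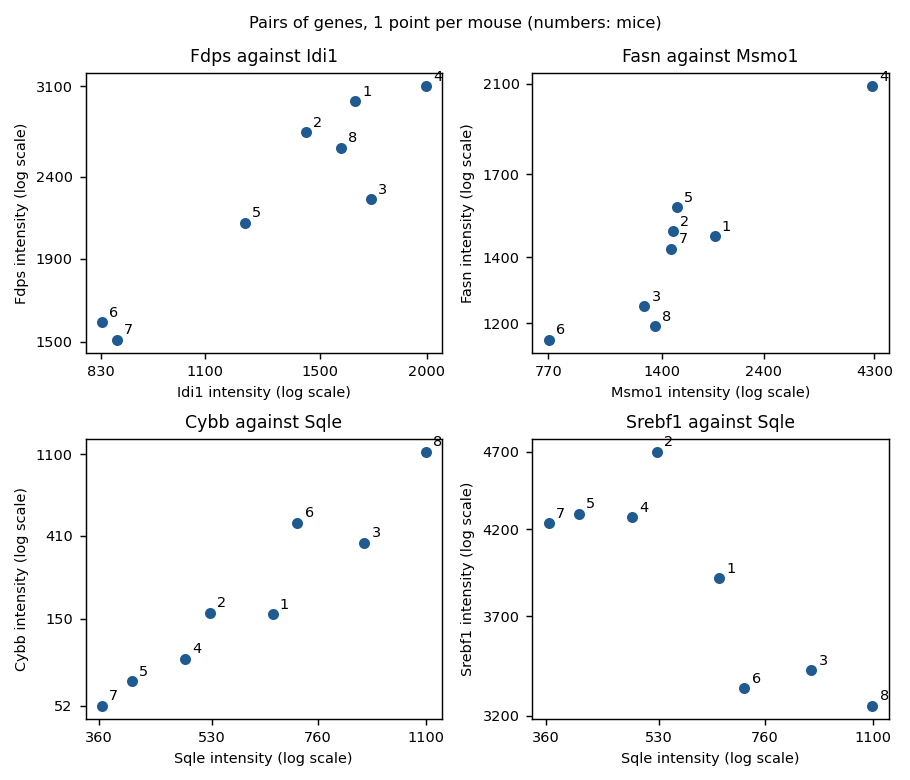
Intensity of pairs of genes on log axes, 1 point per mouse, numbered. Fdps rises with Idi1 and mice 6 and 7 lie apart at the bottom left; Fasn rises with Msmo1 with mouse 4 apart at the top; Cybb rises with Sqle from mouse 7 to mouse 8; and Srebf1 falls as Sqle rises.

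The genes that regulate the pathway were set against the 8 enzymes where bright enough. Srebf2 was not analysed here, and Insig1, which retains SREBP in the endoplasmic reticulum, was dim in all mice (2.4 to 21.1) and could not be fitted. Srebf1, which gives SREBP-1a and SREBP-1c, read 3909, 4699, 3421, 4271, 4294, 3331, 4238 and 3248, a 1.45-fold range with mice 8, 6 and 3 lowest. Fitted on Srebf1, 0 of the 8 genes passed (46 of 6264 probe sets did, 0.734%). Unadjusted, 1 of 8 had a limma p under 0.05, where 17.6% of probe sets did. That gene was Sqle, lower where Srebf1 was higher, with a slope of -2.32 ± 0.53 (SE, limma adjusted p = 0.0655), r = -0.84 (exact permutation p = 0.0123, n = 8), rho = -0.76 (exact p = 0.0368) and r = -0.75 without mice 6 and 8. Sqle passed the threshold without mouse 2 (limma adjusted p = 0.0108) and with the arrays scaled to a common median (limma adjusted p = 0.0333). Those settings called 389 of 6258 and 532 of 6260 probe sets. Sqle did not pass under the other alternatives, with limma adjusted p from 0.0568 to 0.289. Mbtps1, the first protease to cut SREBP, ranged 1.19-fold (671 in mouse 8 to 801 in mouse 1). Nr1h3, the oxysterol receptor LXR alpha, ranged 1.17-fold (1272 in mouse 6 to 1493 in mouse 1). Spread called 0 of these 3 with adjustment (0% of all probe sets) or without it (6.38% of all probe sets).

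Iigp1, an interferon-induced GTPase whose level differed widely between these mice, read 3256, 10908, 11521, 1276, 1462, 15220, 839 and 14442. Mice 2, 3, 6 and 8 formed a high set and the other 4 a low one, so no pooled correlation is given, and none was computed within a set of 4. Fitted on Iigp1, 0 of the 8 genes passed (81 of 6264 probe sets did, 1.29%), and 2 of 8 had an unadjusted limma p under 0.05, where 16.2% of probe sets did. These were Sqle, higher with Iigp1 (slope 0.26 ± 0.062, SE, limma adjusted p = 0.0767, or 0.0123 without mouse 2), and Msmo1, lower with it (slope -0.24 ± 0.10, SE, limma adjusted p = 0.285). Without mouse 2 the fit on Iigp1 called 275 of 6258 probe sets. The slope of Msmo1 was -0.12 without mouse 4 and -0.17 without mouse 6, and in both cases, as without mouse 1 or 3, its unadjusted p exceeded 0.05.

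Other enzymes of the pathway that were bright enough numbered 9: Hmgcs1, Mvk and Mvd before Idi1, and Lss, Tm7sf2, Lbr, Hsd17b7, Ebp and Dhcr7 after Sqle. The spread test called 0 of 9 after adjustment (0% of all probe sets) and 0 of 9 without it (6.38% of all probe sets). The chi-square test called 0 of the 3 early ones and 1 of the 6 later ones, where 18.3% of all probe sets were called. Mouse 4 was highest in 5 of the 9, and in 10 of all 17 pathway genes. The share of all tested genes that were highest in mouse 4 was not counted. Hmgcs1, HMG-CoA synthase, averaged 1378 ± 269 (SD, n = 8) and was lowest in mouse 7 (1084) and highest in mouse 4 (1769). Mvk, mevalonate kinase, averaged 421 ± 40.3 and was lowest in mouse 7 (368) and highest in mouse 3 (476). Its probe set also carries a suffix (_r). The other probe set of Mvk was too dim to test (a mean of 43.9), so this order of mice has no check. Mvd, mevalonate diphosphate decarboxylase, read 362 in mouse 4, against 170 to 210 in the other 7 mice. Hsd17b7, a sterol ketone reductase, ranged 2.53-fold (137 in mouse 5 to 347 in mouse 8), and Dhcr7, the last reductase of the pathway, 2.18-fold (352 in mouse 7 to 769 in mouse 4). Ebp, the sterol isomerase, ranged 1.75-fold (951 in mouse 6 to 1668 in mouse 4). The brighter probe set of Tm7sf2, a sterol reductase, ranged 1.87-fold (584 in mouse 8 to 1091 in mouse 5), but mouse 5 was lowest on its other probe set (529), so its order of mice is uncertain.

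**Figure D4:**
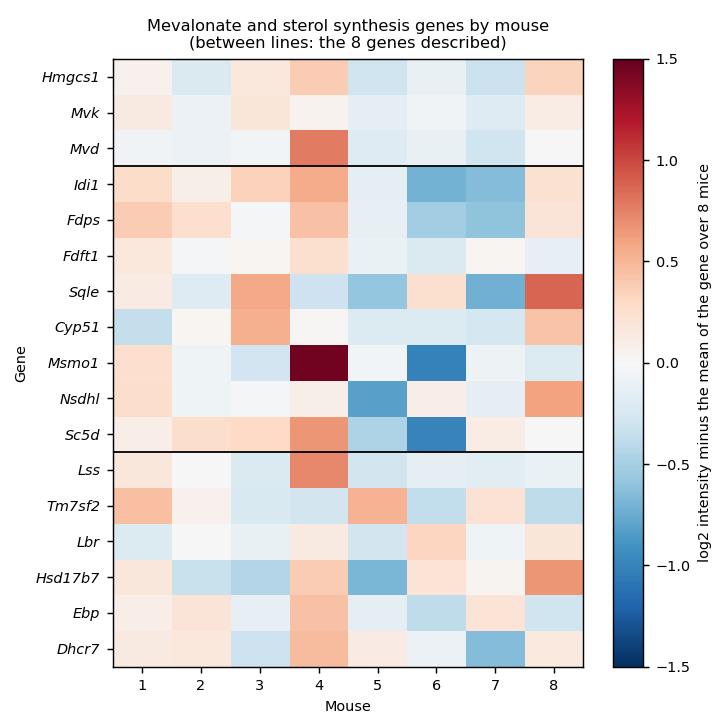
Log2 intensity minus the mean of the gene over the 8 mice (colour) for 17 genes of the mevalonate and sterol pathway (rows) in mice 1 to 8 (columns); the 8 genes described are between the lines. The column of mouse 4 holds the highest value in 10 of 17 genes.

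These 9 enzymes and 17 genes of regulation, uptake, bile acids and fatty acid synthesis gave 208 relations with the 8 genes, and 0 had an adjusted p under 0.05 in the limma fits, while 12 (5.77%) had an unadjusted p under 0.01, where 2.11% of all 50112 fitted slopes on the 8 genes did. The relations described from here on were picked from these 12. Msmo1 went with Lss, lanosterol synthase (r = 0.856, exact permutation p = 0.0213, n = 8; rho = 0.524, exact p = 0.197; r = 0.721 without mice 4 and 6), which read 799 in mouse 4 and at most 547.5 elsewhere. Fdft1 went with Ebp (r = 0.868, exact permutation p = 0.00568, n = 8; rho = 0.810, exact p = 0.0218; r = 0.641 without mice 4 and 6). Nsdhl went with Hsd17b7, which acts just after it in removing the same methyl groups (r = 0.842, exact permutation p = 0.00556, n = 8; rho = 0.810, exact p = 0.0218; r = 0.516 without mice 5 and 8). Fdps went with Dhcr7 (r = 0.797, exact permutation p = 0.0173, n = 8; rho = 0.857, exact p = 0.0107; r = 0.678 without mice 6 and 7). Ebp also went with Msmo1 (r = 0.825, exact permutation p = 0.00417, n = 8; rho = 0.667, exact p = 0.0831; r = 0.495 without mice 4 and 6).

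Genes of fatty acid synthesis gave 3 of 6 with an unadjusted spread p under 0.05 (6.38% of all probe sets) and 0 of 6 after adjustment (0%). Thrsp, a lipogenic regulator, ranged 11.1-fold (769 in mouse 6 to 8548 in mouse 5), and Me1, malic enzyme, 4.59-fold (335 in mouse 6 to 1536 in mouse 2). Scd1, stearoyl-CoA desaturase, ranged 1.79-fold (11548 in mouse 6 to 20660 in mouse 3). On its other bright probe set the range was 2.79-fold, with mouse 6 again lowest (7551.5) but mouse 5 highest (21058). Fasn, fatty acid synthase, read 1471, 1488, 1249, 2089, 1574, 1154, 1428 and 1192, highest in mouse 4 and lowest in mouse 6, as Msmo1 was. Their r was 0.920 (exact permutation p = 0.000967, n = 8), with rho = 0.905 (exact p = 0.00456) and r = 0.660 without mice 4 and 6, and the limma adjusted p was 0.584. Me1 went with Sc5d (r = 0.794, exact permutation p = 0.0262, n = 8, rho = 0.786, exact p = 0.0279, and r = 0.398 without mice 5 and 6). Elovl6, a fatty acid elongase, was low where Sqle was high (r = -0.78, exact permutation p = 0.0237, n = 8, rho = -0.86, exact p = 0.0107, and r = -0.70 without mice 7 and 8). The other bright probe set of Elovl6 gave r = -0.16 (exact permutation p = 0.699, n = 8, rho = -0.31, exact p = 0.462), with mouse 5 lowest rather than second highest, so this relation rests on the probe set used.

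Bile acid synthesis consumes cholesterol. Cyp7a1, the rate-limiting enzyme of its classic route, read 1000, 934, 723, 922, 337, 258, 917 and 950, with mice 5 and 6 far below the other 6. Its r with Sc5d was 0.878 (exact permutation p = 0.0142, n = 8), but rho was 0.310 (exact p = 0.462) and r was -0.23 without mice 5 and 6, on which the relation rested. Cyp7b1, the oxysterol hydroxylase of the alternative route, read 423, 479, 603, 415, 330, 456, 358 and 665. It was high where Sqle was high, r = 0.928 (exact permutation p = 0.00136, n = 8), rho = 0.905 (exact p = 0.00456) and r = 0.861 without mice 7 and 8, with a limma adjusted p of 0.0696. With Cyp51 it gave r = 0.853 (exact permutation p = 0.0109, n = 8), rho = 0.762 (exact p = 0.0368) and r = 0.399 without mice 3 and 8. On the other bright probe set of Cyp7b1, r was 0.791 with Sqle (exact permutation p = 0.0123, n = 8, rho = 0.857, exact p = 0.0107) and 0.503 with Cyp51 (exact permutation p = 0.222, n = 8, rho = 0.571, exact p = 0.151). Cyp8b1, the sterol hydroxylase that sets bile acid composition, averaged 2303 ± 441 (SD, n = 8). In all, spread called 0 of 3 bile acid genes after adjustment (0% of all probe sets) and 1 of 3 without it (6.38% of all probe sets).

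Of the genes of cholesterol uptake and export, 5 of 11 could be tested. Spread called 0 of 5 with adjustment (0% of all probe sets) or without it (6.38% of all probe sets). Scarb1, the HDL receptor, ranged 1.38-fold (4112 in mouse 5 to 5690 in mouse 1) and Lrp1, a receptor for lipoprotein remnants, 1.36-fold. Npc2, the lysosomal cholesterol carrier, ranged 2.26-fold (1052 in mouse 7 to 2380 in mouse 6) and was low where Sc5d was high (r = -0.81, exact permutation p = 0.0213, n = 8; rho = -0.69, exact p = 0.0694; r = -0.28 without mice 5 and 6). Lipa, lysosomal acid lipase, ranged 2.09-fold (664 in mouse 5 to 1391 in mouse 2).

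Among 4861 other tested genes, the 6 most like the mean of the 8 over the mice were Pax4 (r = 0.873), Arfip2 (0.869), Samd10 (0.869), Anapc2 (0.865), Hmgcs1 (0.850) and Sppl2b (0.848). Hmgcs1 thus ranked 5 among 4861, and the other early enzymes Mvk and Mvd ranked 41 (r = 0.760) and 79 (0.699). The later enzymes ranked 144 (Lss, 0.643), 342 (Dhcr7, 0.533), 694 (Ebp, 0.408), 778 (Hsd17b7, 0.384), 2322 (Lbr, 0.030) and 3985 (Tm7sf2, -0.32). The rank of Tm7sf2 rests on its brighter probe set, whose order of mice its other bright probe set did not share. That other probe set was not ranked. The 3 most opposed to the mean of the 8 were Helb (-0.98), Dusp6 (-0.93) and Psmb2 (-0.90). Taken singly and leaving out the 8 themselves, the nearest gene was Kdm6a to Sqle (r = 0.976), Arfip2 to Fdps (0.968) and to Idi1 (0.920), Lactb2 to Fdft1 (0.940) and Apob to Cyp51 (0.946). For Msmo1 it was Isca2 (0.939), for Sc5d Pttg1 (0.938) and for Nsdhl Fam3a (0.943). These are likenesses over 8 mice chosen as the extremes of all these genes, and no test was made of them.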

How the data were processed

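RNA from the livers of 8 mice was hybridised to Affymetrix U74Av2 arrays and read with a GeneArray scanner, per the labels' descriptions. The authors deposited 1 linear intensity per probe set (12488) and array. Software that made it was not given in the sources used here, and the near-equal trimmed means show that the arrays were already scaled. Here the deposited intensity was raised to a floor of 37.2 (25th percentile) and converted to log2, and those averaging 165.2 (the median) or more were kept: 6265, for 4869 genes. Control probe sets (66) and those with several symbols (396) were not named. Levels of a gene are those of its brightest probe set. Spread and slopes were fitted on the whole table with limma 3.58.1 in R 4.3.3, after a check on simulated data, with Benjamini-Hochberg adjustment over all probe sets within each fit, and slopes took 1 gene's log2 intensity as the predictor. Correlations used exact two-sided permutation over 40320 pairings, and r was repeated leaving out the 2 mice farthest from the predictor's median. The number of arrays limits the precision. Named list genes were the brightest 2 and widest 2 of each list, with those past a limma p of 0.01 against a member and the probe sets following Sqle added after their values were seen. The members and lists were chosen with earlier results of these data known.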

Additional observations from a re-analysis of the deposited data

Results flagged for a closer look

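Among 55 genes checked (the 8 cholesterol synthesis genes, 26 tested genes of the lists and 21 named transcripts that followed Sqle), 7 had a mouse far from the other 7 mice. The measure was the gap to the nearest mouse over the whole range. It was set against the critical value of Dixon's test, which about 1 group in 20 passes by chance. Each gene was checked on the intensity scale and on the log2 scale, and a pass on either was enough. On the log2 scale only Mvd, Lss and Mbtps1 passed. The same check was not made over all tested genes. Msmo1 read 4256 in mouse 4, with 1851 the nearest (0.690 of the range on the intensity scale, and below the critical value on the log2 scale). Mouse 4 was also far above the rest for Mvd, 362 with 210 the nearest (0.792 on the intensity scale and 0.721 on the log2 scale), and for Lss, 799 with 547.5 the nearest (0.633 and 0.549). For Fasn it read 2089, with 1574 the nearest (0.550 on the intensity scale). Mbtps1 was lowest in mouse 8, 671 with 740 the nearest (0.531 on the intensity scale and 0.553 on the log2 scale). Npc2 was highest in mouse 6, 2380 with 1618 the nearest (0.574 on the intensity scale), and Cybb in mouse 8, 1132 with 480 the nearest (0.604 on the intensity scale).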

How the results depend on the processing

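Alternatives were a floor at the 10th percentile, no filter or one at the 75th percentile, a common median, quantile normalization, averaging a gene's probe sets, another test or measure (chi-square, no trend, Spearman) and leaving out each mouse. The same alternatives on the number of transcripts following a gene were added after seeing the data. Scaling to a common median moved mouse 5 most, by 0.18 log2. The spread call stayed at 0 of 8 genes in all of them except the chi-square test, with 6. Pairs over 0.7 numbered 5 to 11 when a mouse was left out, 11 without mouse 7. The share of all pairs over 0.7 was then 5.96% (without mouse 6) to 7.24% (without mouse 3), and 6.57% without mouse 7. Calls on Srebf1 were 0 to 1 when a mouse was left out (1 without mouse 2, when 389 of 6258 probe sets were called). There was 1 with a common median, when 532 probe sets were called. Calls on Iigp1 were 0 to 1, with 1 without mouse 2, when 275 of 6258 probe sets were called. Transcripts following Sqle numbered 0 with no filter, 6 with a common median, 14 with no trend and 0 to 130 when a mouse was left out. The 6 and the 14 were all among the 23, and all 23 were among the 130 found without mouse 6. Transcripts following Fdft1 numbered 164 with a common median against 0, those following Cyp51 1 with no filter, and those following Nsdhl 1 without mouse 3 or 6. The causes were not tested. None of the single pairs and slopes repeated under these alternatives changed sign. Within all 28 pairs, however, negative values numbered 5, but 8 without mouse 5, 8 by Spearman and 3 without mouse 8. Some of those pairs thus changed sign. The relations with listed genes and the nearest genes were not repeated. Among the relations described above, leaving out 2 mice turned the sign of Msmo1 with Sc5d and of Cyp7a1 with Sc5d. It also turned pairs not described there, such as Sqle with Fdps (r = 0.25, and -0.27 without mice 7 and 8). Of 105 repeats of single pairs, 24 lost an exact p under 0.05 and 81 did not change their call, and of 90 repeats of slopes 3 gained a call. Of 111 means, 1 moved by more than 1 SD, that of Sc5d to 1004 over all its probe sets. Cyp51 fell below the filter at the 75th percentile, fits on Srebf2 were not run because it was not analysed here, and those on Insig1 could not be made because it lay at the floor in every mouse. No paired analysis was possible because there is 1 group. With 8 arrays of 1 group, a count of 0 in the spread test does not show that the mice were alike.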
